A study of Mus musculus with 6 samples.

Results

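Glycolysis splits glucose into pyruvate in a chain of enzymes in the cytosol, and lactate dehydrogenase then turns pyruvate into lactate, which leaves the cell. Many of these enzymes, together with the glucose importer GLUT1 and the lactate exporter MCT4, are also targets of hypoxia-inducible factor (HIF), a transcription factor whose alpha subunit is marked for destruction by prolyl hydroxylases while oxygen is present. HIF also drives genes that have no part in glycolysis, among them those for blood vessel growth, mitochondrial turnover and histone demethylation. In macrophages, inflammatory stimuli are known to raise glycolysis and HIF activity without a lack of oxygen. The 39 genes described here are the glycolytic enzymes, their transporters and regulatory kinases, the oxygen-sensing genes and HIF targets outside glycolysis. They were chosen by gene symbol from the 55401 genes of the deposited table.

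The cells were mouse bone-marrow-derived macrophages, grown from bone marrow for 7 days in medium conditioned by L929 fibroblasts. The group L-OHP (3 samples) received oxaliplatin, a platinum chemotherapy drug, at 5 µM for 12 h. The group L-OHP+FUC (3 samples) was first kept for 12 h with 250 µg/ml fucoidan, a sulfated sugar polymer from brown seaweed, and then received 5 µM oxaliplatin for 12 h. All 6 samples therefore carry oxaliplatin, untreated cells and cells given fucoidan alone were not analysed here, and every difference below is between oxaliplatin with fucoidan beforehand and oxaliplatin alone. The labels do not say that the 3 samples of a group came from separate mice or cultures, so the p-values cover only how these samples vary among themselves, and that variation could be technical.

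Values were FPKM (fragment counts divided by transcript length and by library size), a level per length. The steps between low values implied between 15.8 and 18.6 M fragments per library, but only 37.4% to 42.5% of low values came out as whole reads within 0.03 of a read, so counts were not recovered and the depth is approximate. All 8 macrophage markers were measured, with summed levels of 12603 to 17957 FPKM in L-OHP and 13574 to 14559 FPKM in L-OHP+FUC, most of it Lyz2. Of the 8, Csf1r rose (log2 fold change 0.47, limma adjusted p = 0.0233), Mertk fell (-0.74, limma adjusted p = 0.00432), Fcgr1 fell (-0.69, limma adjusted p = 0.0268) and the other 5 did not pass. The 9 neutrophil markers summed to 3.79 to 4.26 FPKM in L-OHP and 5.70 to 6.56 FPKM in L-OHP+FUC. Ly6g and Cxcr2 were listed at 0 in every library. Of the 2 neutrophil markers tested, S100a8 rose (log2 fold change 0.54, limma adjusted p = 0.0162) and Camp did not pass. The 7 fibroblast markers summed to 5.18 to 12.4 FPKM and 7.77 to 8.21 FPKM. The 6 erythroid and megakaryocyte markers, nearly all of it Pf4, summed to 16.1 to 20.9 FPKM and 30.7 to 33.9 FPKM. Of these 6 only Pf4 was tested, and it rose (log2 fold change 0.73, limma adjusted p = 0.00888). Dendritic cell, lymphocyte and mast cell lists summed to less than 1 FPKM in each library. The part of the macrophage, neutrophil and Pf4 marker differences in the results below was not tested.

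Of the 39 genes, 35 reached 0.5 FPKM in at least 3 of the 6 libraries and were tested with limma among 12084 genes. The values of the genes nearest that limit were far apart. Aldoc, the lowest tested, averaged 1.19 FPKM over the 6 libraries, and Adm, the highest untested, averaged 0.16 FPKM. With adjusted p under 0.05 as the threshold, 11 of the 35 rose with fucoidan, 2 fell and 22 did not pass. Over all tested genes 7.67% were called higher and 19.3% lower, 27.0% in all, so calls among the 35 were mostly higher and those of the whole table mostly lower. The split of the whole table depended on scaling. It was 13.1% higher and 13.9% lower after a median-ratio factor, and 1565 genes higher and 1359 lower after quantile normalization. It also depended on level, with 12.7% higher and 16.3% lower among genes with a mean of at least 5 FPKM. At that level, 11 of 26 of the listed genes were called higher and 1 lower. The median log2 fold change of the 35 (L-OHP+FUC minus L-OHP, on log2(FPKM + 1), which understates changes of low genes) was 0.22, against -0.10 over all tested genes. In bulk RNA, fewer cells of a type and less RNA per cell cannot be told apart.

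**Figure D1:**
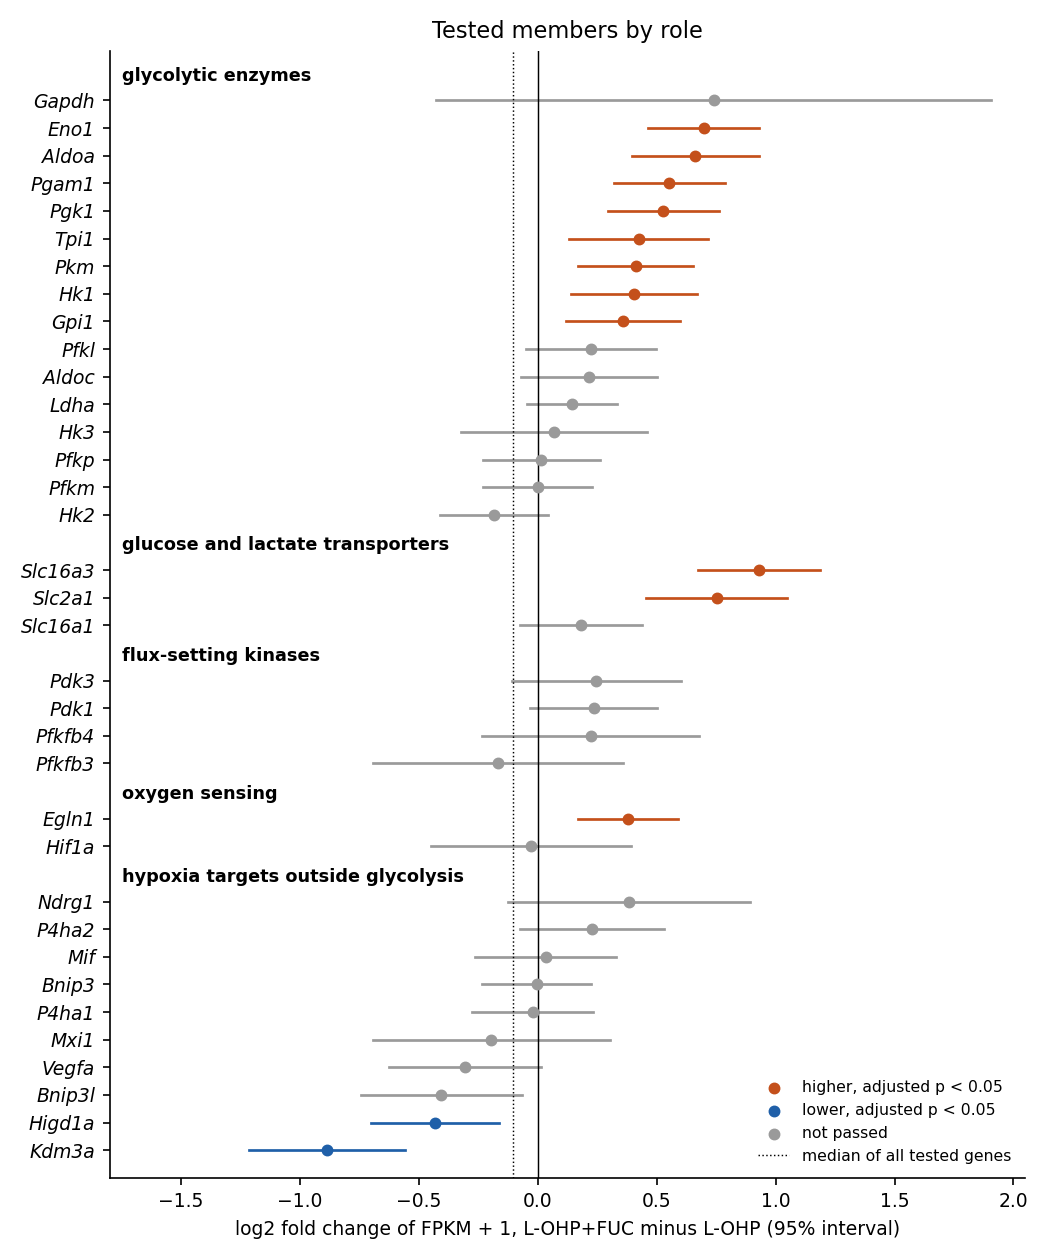
Log2 fold change of FPKM + 1 (x axis, L-OHP+FUC minus L-OHP, with 95% intervals) for the 35 tested genes, grouped by role, 3 libraries a group. The 8 enzymes and 2 transporters that passed lie to the right of 0, as does Egln1 of the oxygen-sensing genes. The 2 that passed among the listed hypoxia targets outside glycolysis, Higd1a and Kdm3a, lie to the left.

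The hypoxia response element that HIF binds has the core ACGTG or GCGTG. Before the values, 6 promoters are shown, each with such a core in the printed window. They belong to genes that rose (Slc16a3, Slc2a1, Pgam1), to genes that did not pass the test (Ldha, Bnip3) and to 1 that fell (Kdm3a). Each line gives the 180 bases before a RefSeq start (build GRCm38.p6), 5′ to 3′ on the gene's strand. Capitals mark ACGTG or GCGTG on either strand, which reads as CACGT or CACGC when it lies on the other one.
Slc16a3: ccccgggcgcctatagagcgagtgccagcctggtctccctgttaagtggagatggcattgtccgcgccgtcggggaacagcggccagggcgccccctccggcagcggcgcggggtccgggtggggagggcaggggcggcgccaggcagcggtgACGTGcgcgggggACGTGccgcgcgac
Slc2a1: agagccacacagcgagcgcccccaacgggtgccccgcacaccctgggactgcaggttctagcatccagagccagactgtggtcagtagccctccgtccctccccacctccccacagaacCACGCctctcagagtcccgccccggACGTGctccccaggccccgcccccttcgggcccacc
Pgam1: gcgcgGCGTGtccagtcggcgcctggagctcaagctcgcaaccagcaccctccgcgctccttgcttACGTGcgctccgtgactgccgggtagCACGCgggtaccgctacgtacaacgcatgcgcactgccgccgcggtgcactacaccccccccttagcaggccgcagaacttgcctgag
Ldha: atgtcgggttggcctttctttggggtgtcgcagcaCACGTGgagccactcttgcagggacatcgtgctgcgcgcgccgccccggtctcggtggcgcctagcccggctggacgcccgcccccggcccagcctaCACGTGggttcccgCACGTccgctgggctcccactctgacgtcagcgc
Bnip3: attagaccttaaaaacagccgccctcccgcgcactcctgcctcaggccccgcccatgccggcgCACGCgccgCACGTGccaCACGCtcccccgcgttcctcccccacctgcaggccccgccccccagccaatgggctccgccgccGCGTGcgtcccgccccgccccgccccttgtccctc
Kdm3a: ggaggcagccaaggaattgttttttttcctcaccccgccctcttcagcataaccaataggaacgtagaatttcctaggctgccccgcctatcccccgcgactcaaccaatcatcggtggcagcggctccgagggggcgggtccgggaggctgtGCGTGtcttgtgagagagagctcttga
These stretches are chr11:120948887-120949066 (+) for Slc16a3, chr4:119108565-119108744 (+) for Slc2a1 and chr19:41911691-41911870 (+) for Pgam1. They are chr7:46845624-46845803 (+) for Ldha, chr7:138909507-138909686 (-) for Bnip3 and chr6:71632918-71633097 (-) for Kdm3a. Ldha has 2 such windows in the table and Kdm3a has 3, and the one with the most cores is printed. The Kdm3a windows not printed hold no core, and the Ldha window not printed holds 1. The palindrome CACGTG counts on both strands, which gives 5 cores in the Ldha stretch, 5 in that of Bnip3, 3 in that of Pgam1, 2 each in those of Slc16a3 and Slc2a1, and 1 in that of Kdm3a.

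A RefSeq window of 250 bases before the start was found for 37 of the 39 genes, and 33 of these (89.2%) held ACGTG or GCGTG on either strand. Some genes have several windows, and a gene was counted if any of them held a core. For 32 of the 37 genes, a window read into an annotated transcript start. The same search found a core for 62.1% of the 8468 tested genes with a window and in 38.6% of all 32851 windows of that length. The core with A, ACGTG, stood in 22 of the 37 genes (59.5%) and in 2205 of the 8468 tested genes. The glycolytic enzymes held either core in 14 of 16 (87.5%) and the hypoxia targets outside glycolysis in 9 of 11 (81.8%), and the difference between these shares was not tested. The windows of the 37 had a median GC content of 62.8%, against 59.6% for the tested genes. A match describes the letters and not a bound site.

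Of the 3 transporters, Slc16a3 and Slc2a1 rose and Slc16a1 did not pass, where 7.67% of all tested genes were called higher. Slc16a3 encodes MCT4, the lactate exporter of glycolytic cells. Its level was 4.01, 4.96 and 4.11 FPKM in L-OHP and 10.1, 9.03 and 8.54 FPKM in L-OHP+FUC. No value of one group reached the other, and the means, 4.36 ± 0.52 and 9.21 ± 0.78 FPKM (SD, n = 3), differed 2.11-fold. The log2 fold change was 0.93 (SE 0.11, limma adjusted p = 0.00464). Slc2a1, which encodes the glucose importer GLUT1, had 11.8, 15.5 and 11.3 FPKM in L-OHP and 22.3, 22.5 and 21.7 FPKM in L-OHP+FUC. The L-OHP+FUC libraries were close to each other and all above the L-OHP libraries, with a log2 fold change of 0.75 (SE 0.13, limma adjusted p = 0.0103).

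Slc16a1, which encodes MCT1, a carrier that moves lactate in either direction, had 2.16, 2.26 and 2.85 FPKM in L-OHP and 2.67, 2.94 and 3.00 FPKM in L-OHP+FUC. These groups overlapped, and the log2 fold change of 0.18 did not pass the test (limma adjusted p = 0.249, 95% interval -0.08 to 0.44). Slc16a3 therefore made up more of the summed Slc16a1 and Slc16a3 level with fucoidan. Its share was 65.0%, 68.7% and 59.1% in L-OHP and 79.0%, 75.4% and 74.0% in L-OHP+FUC, without overlap. An exact two-sided permutation test of the share gave p = 0.1, the smallest that 3 against 3 allows, and 0.26 after adjustment over 13 such shares. Slc16a1 was itself called higher under quantile normalization and under a GC and length correction. Basigin (Bsg), the chaperone that brings MCT1 and MCT4 to the cell surface, had a mean of 68.5 ± 5.45 FPKM in L-OHP and rose to 106 ± 9.07 FPKM (SD over 3 libraries each, log2 fold change 0.62, limma adjusted p = 0.0103).

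Of the 16 glycolytic enzymes, all of which were tested, 8 rose, none fell and 8 did not pass. Over all tested genes 7.67% were called higher and 19.3% lower. Of the 16, 14 had a positive fold change, against 4728 of the 12084 tested genes. The median log2 fold change of the 16 was 0.38, or 0.25 without L-OHP+FUC replicate 1. Against 16.1% of all tested genes, 9 of the 16 had every L-OHP+FUC library above every L-OHP library, and 1 (Hk2) had the reverse, against 30.9%. The median over the 16 of the group mean went from 43.8 to 57.6 FPKM.

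**Figure D2:**
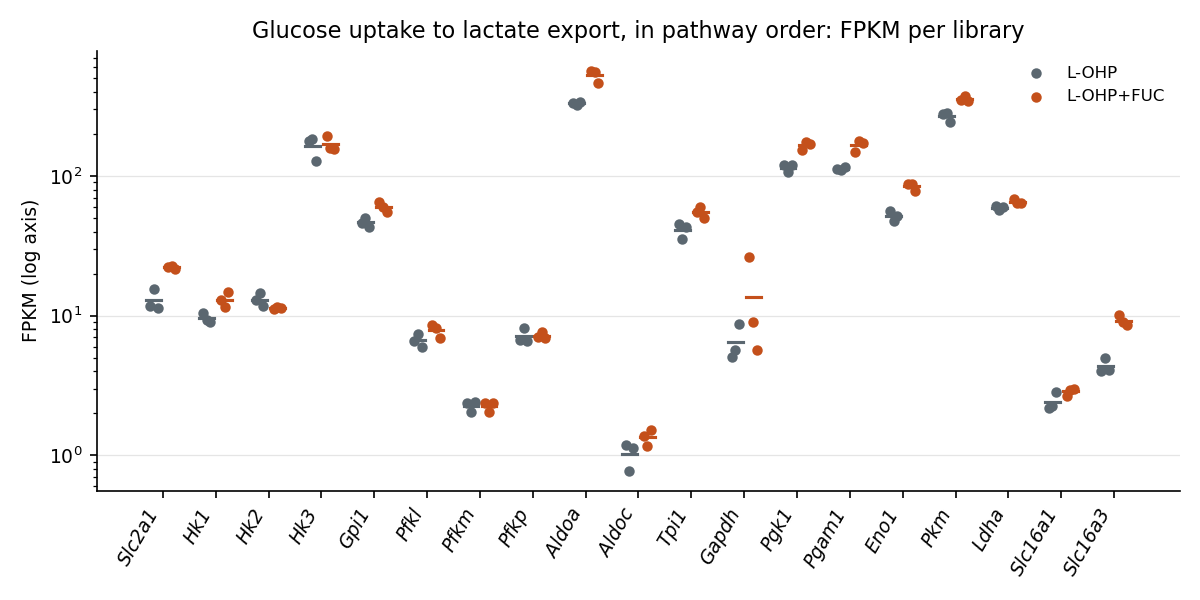
FPKM in each of the 6 libraries (points, log axis) for the glycolytic enzymes and transporters, with the mean of each group. Aldoa, Eno1, Pgam1 and Pgk1 separate fully between the groups, while Hk3, Pfkm and Pfkp overlap.

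Hexokinases trap glucose in the cell as glucose 6-phosphate. Hk3 was by far the most abundant, with 85.8% to 89.0% of the summed hexokinase level in every library, and its values of 178, 184 and 129 FPKM in L-OHP overlapped those of 194, 159 and 157 FPKM in L-OHP+FUC (log2 fold change 0.07, limma adjusted p = 0.786). Hk1, which binds mitochondria, rose from 10.5, 9.24 and 8.97 FPKM to 12.9, 11.6 and 14.7 FPKM (log2 fold change 0.41, SE 0.11, limma adjusted p = 0.0377). Hk2, the hexokinase known as a HIF target, had 12.9, 14.4 and 11.7 FPKM in L-OHP and 11.1, 11.5 and 11.3 FPKM in L-OHP+FUC. Its groups did not overlap, but the log2 fold change of -0.18 did not pass (limma adjusted p = 0.190). Gpi1, which converts glucose 6-phosphate to fructose 6-phosphate, rose from 46.1, 50.4 and 43.0 FPKM to 64.8, 59.6 and 55.1 FPKM (log2 fold change 0.36, limma adjusted p = 0.0410).

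None of the 3 phosphofructokinase genes, whose product catalyses the committed step, passed. Pfkl, the liver-type subunit, had 6.59, 7.38 and 5.94 FPKM in L-OHP and 8.62, 8.19 and 6.94 FPKM in L-OHP+FUC (log2 fold change 0.22, limma adjusted p = 0.187). Pfkp had a log2 fold change of 0.01 (95% interval -0.23 to 0.26), and Pfkm, the muscle type, one of -0.00 (95% interval -0.23 to 0.23). The intervals of Pfkp and Pfkm leave room for a difference of about that size in either direction.

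Of the 9 genes below phosphofructokinase, 6 rose, where 7.67% of all tested genes were called higher. Aldolase A (Aldoa), which cleaves fructose 1,6-bisphosphate, had the highest level of the 16 on the genes' own rows, with 332, 324 and 340 FPKM in L-OHP and 568, 553 and 466 FPKM in L-OHP+FUC. The groups were fully apart, and the log2 fold change was 0.66 (SE 0.11, limma adjusted p = 0.0104). Its brain paralog Aldoc stayed at or below 0.35% of the summed aldolase level and did not pass (limma adjusted p = 0.220). Triose phosphate isomerase (Tpi1), which interconverts the triose phosphates, rose from 45.0, 35.2 and 43.0 FPKM to 55.5, 60.3 and 50.1 FPKM (log2 fold change 0.42, limma adjusted p = 0.0437).

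Phosphoglycerate kinase (Pgk1), which makes the first ATP of the chain, had 119, 107 and 119 FPKM in L-OHP and 153, 175 and 171 FPKM in L-OHP+FUC (log2 fold change 0.53, SE 0.10, limma adjusted p = 0.0132). Phosphoglycerate mutase (Pgam1), the next enzyme, went from 113, 110 and 116 FPKM to 149, 178 and 173 FPKM (log2 fold change 0.55, limma adjusted p = 0.0119). For both, each L-OHP+FUC library was above each L-OHP library. Enolase 1 (Eno1), which forms phosphoenolpyruvate, had 55.7, 47.8 and 51.8 FPKM in L-OHP and 87.8, 88.0 and 77.8 FPKM in L-OHP+FUC. Its log2 fold change was 0.70 (SE 0.10, limma adjusted p = 0.00709). Pyruvate kinase (Pkm), the last step to pyruvate, rose from 278, 281 and 244 FPKM to 349, 374 and 344 FPKM (log2 fold change 0.41, limma adjusted p = 0.0280). Pkm shares 15.3% of its exon bases with Gm49759, a gene model on the same strand, whose own values were lower with fucoidan, so reads there could be split between the genes.

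Lactate dehydrogenase A (Ldha), which makes lactate and is a standard HIF target, did not pass. It had 60.7, 57.0 and 59.7 FPKM in L-OHP and 68.5, 63.8 and 63.8 FPKM in L-OHP+FUC. The groups did not overlap, and the log2 fold change was 0.14 (limma adjusted p = 0.219). Its 95% interval of -0.05 to 0.33 ended below the estimates for Aldoa, Pgk1, Pgam1 and Eno1. Its promoter stretch above holds 5 cores, with each CACGTG palindrome counted on both strands, and their part was not tested.

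Several of these calls rest on few libraries. Eno1, Slc2a1, Slc16a3 and Kdm3a (described below) passed in all 17 alternative fits. Without L-OHP+FUC replicate 2, Aldoa, Pgk1 and Pgam1 missed the threshold narrowly (limma adjusted p = 0.0524, 0.0626 and 0.0569), and Eno1 was then the 1 enzyme still called. In that fit 2.20% of all genes were called higher. The calls of Hk1 and Tpi1 were lost when any 1 of the 6 libraries was left out, and that of Pkm without any library but L-OHP replicate 2. The Gpi1 call was lost without L-OHP replicate 1 or 3 or L-OHP+FUC replicate 1 or 2. The fold changes of these enzymes kept their sign in each of those fits.

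Gapdh, which oxidises glyceraldehyde 3-phosphate and is often used as a constant reference gene, had an unusually low own value. It was listed at 5.07, 5.63 and 8.68 FPKM in L-OHP and 26.2, 8.95 and 5.70 FPKM in L-OHP+FUC, with 1 high library, and did not pass (log2 fold change 0.74, SE 0.49, limma adjusted p = 0.295). The annotation holds 90 transcripts of other genes with at least 95% identity to Gapdh over 300 bases or more, and 16 of them reached 1 FPKM in some library. The Gapdh row held 0.833% to 3.75% of the level summed over Gapdh and these copies. That sum was 483, 423 and 428 FPKM in L-OHP and 699, 712 and 684 FPKM in L-OHP+FUC, without overlap. It adds FPKM of transcripts of unlike length, such as 3289 bases for Gapdh and 1002 for its copy Gm2606. Whether a shared read enters several rows is not known, so this sum, like those below, is not a level of the parent gene alone. On the summed level, an alternative added after the data were seen, the log2 fold change was 0.65 (SE 0.10, limma adjusted p = 0.00900). The share of each copy's reads that came from Gapdh itself cannot be told from these files.

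**Figure D3:**
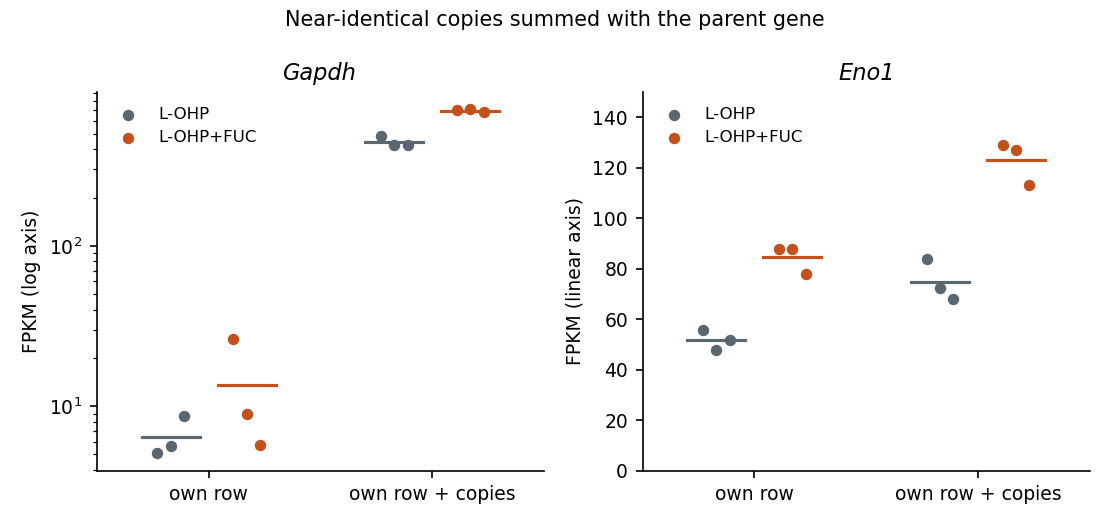
FPKM in each library for the gene's own row and for the sum with its near-identical copies, for Gapdh (log axis) and Eno1 (linear axis from 0). The Gapdh row lies between 5.07 and 26.2 FPKM, while its sum lies between 423 and 712 FPKM with the groups apart.

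Other enzymes also have near-identical copies, and those called on their own row were also called on the sum. The Eno1 row held 66.1% to 76.0% of the sum with its 4 copies, among them Eno1b at 99.48% identity. That sum had a log2 fold change of 0.71 (limma adjusted p = 0.00866). With copies summed, Pgam1, Pgk1, Pkm, Tpi1 and Gpi1 also passed, with log2 fold changes of 0.50, 0.52, 0.41, 0.38 and 0.35, and Ldha again did not (0.13, limma adjusted p = 0.243).

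The 4 kinases that regulate flux into and out of the chain did not pass. Pfkfb3 and Pfkfb4 make fructose 2,6-bisphosphate, which activates phosphofructokinase. Pfkfb3 had 7.11, 8.19 and 7.39 FPKM in L-OHP and 10.0, 5.33 and 5.33 FPKM in L-OHP+FUC, so 1 library with fucoidan lay above and the others below all of L-OHP (log2 fold change -0.17, limma adjusted p = 0.602). Pfkfb4 overlapped too, with a log2 fold change of 0.22 (limma adjusted p = 0.418). Pdk1 and Pdk3 inhibit pyruvate dehydrogenase and so slow the conversion of pyruvate to acetyl-CoA in mitochondria. Pdk1 had 1.85, 1.72 and 2.30 FPKM in L-OHP and 2.33, 2.74 and 2.34 FPKM in L-OHP+FUC, just apart, and did not pass (log2 fold change 0.23, limma adjusted p = 0.159). Pdk3 had a log2 fold change of 0.25 (limma adjusted p = 0.254).

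Among the oxygen-sensing genes, the RNA of Hif1a, the HIF alpha subunit that is mainly controlled through protein stability, had group means of 18.8 FPKM in both groups. It had 18.3, 19.7 and 18.3 FPKM in L-OHP and 16.7, 14.96 and 24.8 FPKM in L-OHP+FUC, which spread on both sides (log2 fold change -0.03, limma adjusted p = 0.920, 95% interval -0.45 to 0.39). HIF protein was not measured. Egln1 encodes PHD2, the main prolyl hydroxylase that marks HIF alpha, and rose from 8.79, 9.54 and 9.12 FPKM to 12.4, 13.02 and 11.3 FPKM (log2 fold change 0.38, SE 0.09, limma adjusted p = 0.0231). That call was lost without L-OHP replicate 1 or 3 or L-OHP+FUC replicate 1 or 2. Egln3 encodes PHD3 and is itself a strongly induced HIF target. It was too low for the test, at 0.11, 0.08 and 0.05 FPKM in L-OHP and 0.18, 0.24 and 0.22 FPKM in L-OHP+FUC, and was at most 1.96% of the summed Egln1 and Egln3 level.

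Of the 13 HIF targets outside glycolysis 10 were tested, none rose, 2 fell and 8 did not pass. This list leaves out Egln1 and Egln3, hypoxia targets too, which were placed with the oxygen-sensing genes above. Adding both gives 15 genes with 11 tested, of which 1 (Egln1) rose, 2 fell and 8 did not pass. The median of these 11 was -0.02 on the log2 scale, so the absence of a rise depends on the grouping. The values below are for the 10. The 2 of 10 that fell are close to the 19.3% called lower over all tested genes, and with 7.67% called higher there, 0 of 10 is near the whole table too. Among the 10, the log2 fold changes ran from -0.89 to 0.38. Their median of -0.11 lay next to the -0.10 of all tested genes. Rescaling the libraries moved both together, to -0.01 and -0.01 with a median-ratio factor, to 0.00 and 0.03 with quantile normalization and to 0.03 and 0.01 with a GC and length correction. The median of the enzymes was 0.50, 0.38 and 0.32 under the same 3 scalings. No test of the difference between these classes was made, since genes are not replicates. The enzymes also had higher levels than these targets (medians of 43.8 and 6.41 FPKM in L-OHP) and more GC (medians of 53.12% and 48.35%). The part of level and GC content in the difference was not tested.

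**Figure D4:**
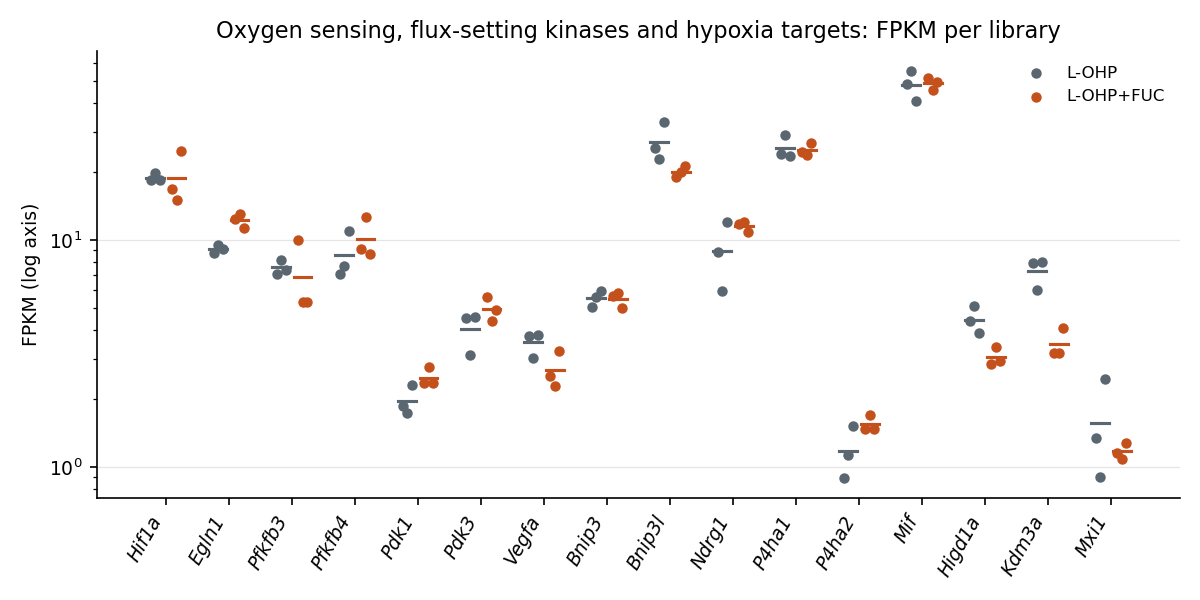
FPKM in each of the 6 libraries (points, log axis) for the kinases, the oxygen-sensing genes and the hypoxia targets outside glycolysis, with the mean of each group. Kdm3a and Higd1a lie lower in L-OHP+FUC, Egln1 lies higher, and Vegfa, Bnip3, P4ha1 and Mif overlap.

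Kdm3a, a histone H3K9 demethylase that HIF induces, fell most. It had 7.89, 6.02 and 7.97 FPKM in L-OHP and 3.17, 3.18 and 4.09 FPKM in L-OHP+FUC, with no overlap. The means of 7.29 ± 1.10 and 3.48 ± 0.53 FPKM (SD, n = 3) had a ratio of 0.477, and the limma estimate on log2(FPKM + 1) was -0.89 (SE 0.14, limma adjusted p = 0.00883). Higd1a, a mitochondrial protein of the respiratory chain induced by hypoxia, fell from 4.38, 5.09 and 3.90 FPKM to 2.83, 3.36 and 2.92 FPKM (log2 fold change -0.43, SE 0.11, limma adjusted p = 0.0336). The Higd1a call was lost without any library but L-OHP replicate 3, and under the median-ratio and quantile scalings (limma adjusted p = 0.0712 and 0.175).

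The mitophagy receptors Bnip3 and Bnip3l are close relatives. Bnip3l had 25.5, 22.7 and 33.2 FPKM in L-OHP and 18.9, 19.9 and 21.2 FPKM in L-OHP+FUC, all lower, without passing the test (log2 fold change -0.40, limma adjusted p = 0.0778). It passed when L-OHP replicate 2 was left out (limma adjusted p = 0.0338). Bnip3 had 5.07, 5.60 and 5.93 FPKM in L-OHP and 5.64, 5.85 and 5.03 FPKM in L-OHP+FUC (log2 fold change -0.01, limma adjusted p = 0.972). Of their summed level, Bnip3l had 83.4%, 80.2% and 84.8% in L-OHP and 77.0%, 77.3% and 80.9% in L-OHP+FUC, overlapping (exact two-sided permutation p = 0.2, adjusted over 13 shares 0.371).

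Vegfa, the growth factor of blood vessels, had 3.78, 3.01 and 3.81 FPKM in L-OHP and 2.53, 2.26 and 3.25 FPKM in L-OHP+FUC (log2 fold change -0.30, limma adjusted p = 0.133). Ndrg1, a stress-induced gene, had the highest fold change of these targets at 0.38, with L-OHP values from 5.95 to 12.0 FPKM that overlapped those of L-OHP+FUC, from 10.9 to 12.1 FPKM (limma adjusted p = 0.221). P4ha1 and P4ha2, subunits of the collagen prolyl hydroxylase, had log2 fold changes of -0.02 and 0.23, and the cytokine gene Mif had 0.03. Mxi1, a MYC antagonist, had -0.19 with a single high L-OHP library of 2.44 FPKM. None of these passed. Adm (0.11 to 0.27 FPKM over the 6 libraries) and Car12 (at most 0.03 FPKM) were too low to test. Ankrd37 was listed at 0.29, 0.07 and 0.36 FPKM in L-OHP and at 0 in all 3 L-OHP+FUC libraries, below the level at which genes were tested.

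The same values can be read library by library. The mean deviation of the tested enzymes from each gene's own mean, on log2(FPKM + 1), was -0.14, -0.18 and -0.18 in L-OHP and 0.26, 0.16 and 0.08 in L-OHP+FUC. For the hypoxia targets it was 0.05, -0.01 and 0.20 in L-OHP and -0.11, -0.10 and -0.04 in L-OHP+FUC. For all tested genes it was 0.06, 0.07 and 0.06 in L-OHP and -0.10, -0.07 and -0.03 in L-OHP+FUC. The level of the whole table depends on scaling, as its median fold changes under the 3 scalings above show.

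**Figure D5:**
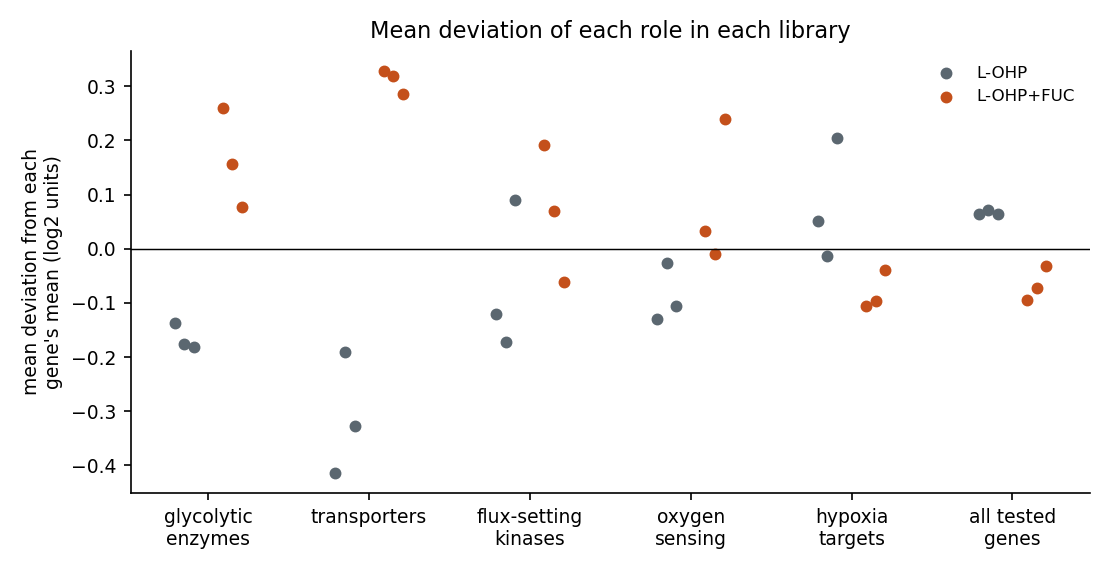
Mean deviation from each gene's own mean over the 6 libraries (y axis, log2(FPKM + 1)) by role and library, with all tested genes for reference. The enzymes go from -0.18 to -0.14 in L-OHP to between 0.08 and 0.26 in L-OHP+FUC, and the hypoxia targets lie below 0 in all 3 L-OHP+FUC libraries, as all tested genes do.

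Genes around the chain were taken from lists of pathway membership. Of 29 further glycolysis genes 17 were tested, 2 rose, 3 fell, around a median of 0.12 (log2 fold change), shares close to the 7.67% higher and 19.3% lower of all tested genes. Beside Bsg, the glucose transporter gene Slc2a8 rose (log2 fold change 0.44, limma adjusted p = 0.0173). Among those that fell were isoforms known from other tissues. Enolase 2 (Eno2), the neuronal form, had 6.76, 6.86 and 7.17 FPKM in L-OHP and 1.99, 2.73 and 2.57 FPKM in L-OHP+FUC (log2 fold change -1.22, limma adjusted p = 0.00339), the reverse of Eno1. Pgam2, the muscle form, fell as well, the reverse of Pgam1 (log2 fold change -0.94, limma adjusted p = 0.0105), as did the kinase Pfkfb2 (-0.63, limma adjusted p = 0.0153). The calls of Slc2a8 and Pfkfb2 were lost without L-OHP replicate 1 or L-OHP+FUC replicate 1 or 2.

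The pentose phosphate pathway, which branches off at glucose 6-phosphate and makes NADPH, and glycogen metabolism were taken as 1 list. All 16 of its genes were tested, and 8 rose, none fell and 8 did not pass, with a median log2 fold change of 0.43, beside 7.67% higher and 19.3% lower over all tested genes. Pgd, which makes NADPH, rose from a mean of 129 ± 9.65 FPKM to one of 221 ± 13.1 FPKM (SD over 3 libraries each, log2 fold change 0.77, limma adjusted p = 0.00583). G6pdx, the entry enzyme, rose with a log2 fold change of 0.60 (limma adjusted p = 0.0101), and transketolase (Tkt) with 0.57 (limma adjusted p = 0.00834). Gbe1, which branches glycogen, went up from a mean of 10.8 FPKM to 21.1 FPKM (log2 fold change 0.91, limma adjusted p = 0.00407). These 4 passed in every fit with 1 library left out, while the count of the list fell to 5 without L-OHP replicate 1 or L-OHP+FUC replicate 1 or 2.

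Where pyruvate enters mitochondria, 12 of 13 genes were tested, 1 rose and 2 fell, which is close to the shares of the whole table (7.67% higher, 19.3% lower). Pyruvate carboxylase (Pcx), which turns pyruvate into oxaloacetate, had 3.06, 2.94 and 2.71 FPKM in L-OHP and 7.89, 6.31 and 6.85 FPKM in L-OHP+FUC (log2 fold change 1.03, limma adjusted p = 0.00378). The pyruvate dehydrogenase phosphatases Pdp2 (log2 fold change -0.70, limma adjusted p = 0.0138) and Pdp1 (-0.62, limma adjusted p = 0.0262) fell. These phosphatases reverse the inhibition of pyruvate dehydrogenase by the Pdk kinases. The Pdp2 call was lost without L-OHP+FUC replicate 1, and that of Pdp1 without L-OHP replicate 1 or 3 or L-OHP+FUC replicate 1 or 2.

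Of 28 further genes of the HIF pathway 23 were tested, 3 rose and 2 fell, with a median of 0.02, where 7.67% of all tested genes were called higher and 19.3% lower. Lox, which cross-links collagen, rose from 11.2 to 22.2 FPKM (log2 fold change 0.92, limma adjusted p = 0.00830). P4hb and Ero1l, which act in oxidative protein folding, rose by 0.42 and 0.46 on the log2 scale (limma adjusted p = 0.0247 and 0.0356). The histone demethylase Kdm4c fell (log2 fold change -0.63, limma adjusted p = 0.0125), like Kdm3a, and so did Wsb1 (-0.49, limma adjusted p = 0.0129). The call of Ero1l was lost without any 1 of the 6 libraries, that of P4hb without L-OHP replicate 1 or L-OHP+FUC replicate 1 or 2, and those of Kdm4c and Wsb1 without L-OHP+FUC replicate 2.

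The authors' deposited table gives its own q-values for this comparison. By q under 0.05 in the authors' deposited table, 12 of the 35 tested genes were higher and 1 (Kdm3a) lower, and 12 of these 13 were also called by limma. The authors' deposited table marks 3 of the 35 as significant by its own criterion, Gapdh, Slc16a3 and Kdm3a. The share of all genes with such a q-value or mark was not computed. These counts therefore stand without a background, and both tests used the same 6 libraries. In the authors' deposited table Gapdh passed (q = 0.0218) and Higd1a did not (q = 0.191).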

How the data were processed

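RNA was sequenced after depletion of ribosomal RNA with random primers, per the labels' protocols. The deposited table gives FPKM per gene and library. It also holds the authors' fold (a ratio), its log2, and p-values and q-values for the comparison, which were copied as deposited. The submitters' processing notes name bcl2fastq 2.0, HISAT2, StringTie, DESeq2, limma and mm10 without their roles. No annotation or strand setting is given in the sources used here, so overlapping genes and near-identical copies may share reads.

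The placeholder of 0.0001 FPKM was set to 0. Gene positions, transcripts and copies came from GENCODE M21, matched by gene ID for 99.5% of rows, with blastn 2.17.0 (at least 95% identity over 300 bases). The symbol Aldoa names 2 rows, so the 39 genes have 40 rows, and the higher row was used. Genes with at least 0.5 FPKM in 3 of 6 libraries were fitted with limma 3.58.1 in R 4.3.3 on log2(FPKM + 1), with an intensity trend, two-sided, without covariates and with Benjamini-Hochberg adjustment over 12084 genes. Shares were tested with exact permutation tests (scipy 1.17.1). The limma script was tested on simulated data. The named genes are all 39, and up to 4 genes in each direction of each surrounding list by adjusted p. The genes and lists were chosen with earlier results of these data known. Alternatives were another pseudocount, filters, scalings, a GC and length correction (loess span 0.3, 4 iterations), a replicate block, no trend, protein-coding genes, and each library left out. Depth per library was 15.8 to 18.6 M fragments as implied by the values, which limits low genes most.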

Additional observations from a re-analysis of the deposited data

How the results depend on the processing

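Same-numbered libraries had correlations of deviations of -0.04, -0.07 and 0.08, and differently numbered ones ran from -0.15 to 0.16. Whether the replicate numbers pair the libraries cannot be told from 3 libraries a group. With the replicate block, 6 of the 35 genes, 4 enzymes and 0 oxygen-sensing genes were called higher, and 4.58% of all genes. With the GC and length correction and the block these counts were 5, 3 and 0, and further glycolysis genes called higher were 1. Genes called lower were then 1 for pyruvate entry and 1 for the further HIF pathway genes. In that fit 5.43% of all genes were called higher and 6.70% lower.

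Enzymes called higher were 4 without a filter and 5 with the GC and length correction. Genes called lower were 1, both over the 35 and over the hypoxia targets, without a filter, with a mean of at least 5 FPKM, and under the median-ratio and quantile scalings. Quantile normalization called 1 hypoxia target and 1 kinase higher, and the GC and length correction called 1 kinase higher. Both also called Slc16a1 higher, and quantile normalization called Aldoc higher. Oxygen-sensing genes called higher were 2 without a filter. Further glycolysis genes called higher were 5 under the median-ratio scaling, and with a mean of at least 5 FPKM 1 was higher and 0 lower. For pyruvate entry, genes called lower were 1 without a filter, 1 with a mean of at least 5 FPKM (0 higher) and 1 with the GC and length correction (3 higher). The further HIF pathway genes had 1 called lower with a mean of at least 5 FPKM. Stricter filters test fewer genes, and for the others the cause was not tested.

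With 1 library left out, 2.20% to 9.28% of all tested genes were called higher and 6.91% to 18.7% lower. In these fits the 35 genes had 3 to 9 called higher and 1 to 2 lower, and the enzymes 1 to 6 higher. The oxygen-sensing genes had 0 to 1 higher and the hypoxia targets 1 to 2 lower. The further glycolysis genes had 1 to 3 higher, pyruvate entry 0 to 2 lower, pentose phosphate and glycogen 5 to 8 higher, and the further HIF pathway genes 1 to 2 higher and 0 to 3 lower.

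Several genes that did not pass changed sign on the log2 scale. The median-ratio scaling gave 0.0882 for Pfkm, 0.093 for Hif1a, 0.10 for Bnip3 and 0.10 for P4ha1. Quantile normalization gave -0.0289 for Hk3, 0.21 for Pfkm, 0.13 for Bnip3 and 0.0333 for Mxi1. The GC and length correction, with or without the block, gave -0.0716 for Hk3, 0.29 for Hif1a, 0.24 for Bnip3 and 0.13 for P4ha1. With 1 library left out the ranges were -0.0939 to 0.16 for Hk3, -0.0493 to 0.0494 for Pfkm, -0.0335 to 0.10 for Pfkp, -0.23 to 0.11 for Hif1a, -0.0574 to 0.0486 for Bnip3, -0.0756 to 0.0703 for P4ha1, -0.0783 to 0.14 for Mif and -0.39 to 0.0407 for Mxi1.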

Other observations

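Among 8 genes often used as references, 1 rose and 1 fell, close to the 27.0% of all tested genes called in either direction. Rplp0, a ribosomal protein gene, had 386 ± 30.5 FPKM in L-OHP and 517 ± 23.6 FPKM in L-OHP+FUC (SD over 3 libraries each, limma adjusted p = 0.0291), while B2m, the light chain of MHC class I, had 4254 ± 563 FPKM and 1896 ± 253 FPKM (limma adjusted p = 0.00763). Actb had a log2 fold change of 0.04 (limma adjusted p = 0.887) and Sdha one of -0.10 (limma adjusted p = 0.397). Gapdh, another common reference, is described above with its 90 near-identical copies.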
